A study of Sus scrofa with 16 samples.

Results

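The 4 genes described here, *TMSB4X*, *MSN*, *CFL2* and *STMN1*, encode regulators of actin filaments and microtubules, and they were taken from 3875 genes counted in cultured pig satellite cells (SCs). They were selected by name with earlier results of these measurements known, so that their levels and fold changes are a description and carry no p-value. RNA came from SCs of the intercostal muscle of 8 male piglets, 4 with Duchenne muscular dystrophy (DMD) and 4 wild type (WT), at 3 days of age. Each animal gave 1 sample differentiated in low-serum medium (DIFF) and 1 sample proliferating in growth medium (PROL), so that 16 libraries form the groups DMD DIFF, DMD PROL, WT DIFF and WT PROL with 4 animals each. DIFF cultures were kept in 5% horse serum, for 10 days by the sequencing methods and 7 days by the culture methods, and PROL cultures in 20% fetal bovine serum with bFGF. The first porcine model was made by deletion of *DMD* exon 52, and the methods of the paper do not name the mutation of these piglets. The cells were passage 6 cultures that had been depleted of CD31- and CD45-positive cells and selected for satellite cell surface proteins, so that all groups share sorting and expansion.

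Actin exists as single molecules and as filaments, and cells set the balance between them with proteins that bind monomers, cut filaments or tie filaments to the membrane. Thymosin β4 (*TMSB4X*) holds monomeric actin, cofilin-2 (*CFL2*) is the muscle form of a family that severs and depolymerises filaments, and moesin (*MSN*) links filaments to membrane proteins. Stathmin (*STMN1*) binds tubulin dimers, destabilises microtubules and is abundant in dividing cells. Dystrophin, the product of *DMD*, is itself a link between filamentous actin and the muscle membrane.

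Library totals ran between 1110050 and 1781174 counts. Levels are given as CPM, the counts of a gene per 1000000 counts of its library, after TMM scaling, which corrects library totals for a few highly abundant genes, with the mean and SD over 4 animals. The ribosomal RNA gene *RN18S* took 6.32 to 20.4% of a library, with the highest share in DMD PROL replicate 4. The *DMD* gene itself had 30 to 48 counts per library in DMD DIFF and 12 to 22 in WT DIFF, and 24 to 32 in DMD PROL and 6 in every WT PROL library. Libraries of this kind read the 3′ ends of transcripts, away from exon 52, so these counts do not check the labels. In bulk samples of this kind, fewer cells of a type and less RNA per cell cannot be told apart.

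*TMSB4X* stood at its highest level in DMD DIFF. The libraries of DMD DIFF had 12232, 14268, 13749 and 13074 CPM, and those of WT DIFF had 5800.3, 4392, 5143 and 4860.3 CPM. The groups did not overlap, and every DMD DIFF library was above every library of the other groups. In proliferating cells, the DMD libraries had 5146, 5649, 5478 and 6480.5 CPM and the WT libraries 7067, 5840, 6154 and 5503 CPM. Here the 2 genotypes overlapped.

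The mean of *TMSB4X* was 13331 ± 881 CPM in DMD DIFF and 5049 ± 589 CPM in WT DIFF (SD, n = 4 each), a log2 fold change of 1.39 with a standard error (SE) of 0.10. In PROL the means were 5688 ± 568 CPM in DMD and 6141 ± 672 CPM in WT, with a log2 fold change of −0.12 (SE 0.09). Ordered by mean, DMD DIFF was followed by WT PROL, DMD PROL and WT DIFF, and neither the pair WT PROL and DMD PROL nor the pair DMD PROL and WT DIFF was separated by its libraries. *TMSB4X* transcripts made up 1.19 to 1.37% of all counts in DMD DIFF libraries and 0.379 to 0.513% in WT DIFF libraries.

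*MSN* had a similar shape. Moesin levels were 1484, 1479.8, 1693 and 1390.3 CPM in DMD DIFF, against 509.6, 470.3, 458.5 and 553.2 CPM in WT DIFF. The lowest DMD DIFF library was above every other library of the series. In PROL, the DMD libraries had 682.4, 859.2, 665.6 and 763.1 CPM and the WT libraries 1210.8, 857.1, 874.4 and 990.3 CPM. In this state DMD was the lower genotype in mean, and the highest DMD library passed the lowest WT library by a narrow margin.

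The means of *MSN* were 1512 ± 128 CPM in DMD DIFF and 498 ± 42.9 CPM in WT DIFF, a log2 fold change of 1.59 (SE 0.10). In PROL they were 743 ± 88.7 CPM in DMD and 983 ± 163 CPM in WT, a log2 fold change of −0.41 (SE 0.11). By mean, DMD DIFF was followed by WT PROL, DMD PROL and WT DIFF, and only WT PROL and DMD PROL overlapped among neighbours in this order.

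*CFL2* was higher in DMD than in WT in both states. Cofilin-2 transcripts stood at 2489, 2417, 2228 and 2315 CPM in DMD DIFF and at 1218, 968.5, 827.7 and 903.4 CPM in WT DIFF. In PROL they stood at 1675, 1673, 1656 and 1694 CPM in DMD and at 574.1, 524.2, 652.6 and 614.5 CPM in WT. No library of one genotype reached the range of the other in either state, and the 4 DMD PROL libraries were close to each other.

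The means of *CFL2* were 2362 ± 114 CPM in DMD DIFF and 979 ± 169 CPM in WT DIFF, with a log2 fold change of 1.26 (SE 0.11). The PROL means were 1675 ± 15.6 CPM in DMD and 591 ± 55.1 CPM in WT, with a log2 fold change of 1.49 (SE 0.08) that ran between 1.44 and 1.54 when single libraries were left out. All neighbours in the order DMD DIFF, DMD PROL, WT DIFF and WT PROL were separated, so that the lowest DMD level was above the highest WT level whatever the state.

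*STMN1* was highest in proliferating DMD cells. Stathmin transcripts had 833.9, 763.0, 840.4 and 752.6 CPM in DMD PROL and 371.5, 397.5, 296.9 and 380.4 CPM in WT PROL. In DIFF they had 295.7, 288.3, 233.5 and 340.4 CPM in DMD and 57.85, 73.71, 80.3 and 129.4 CPM in WT. Both states kept the genotypes apart. Of the differentiated DMD libraries, replicate 4 lay in the range of proliferating WT libraries and the other 3 lay below its lowest library. The WT DIFF values rest on 84 to 190 counts per library, the smallest numbers among the 4 genes.

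The means of *STMN1* were 289 ± 43.9 CPM in DMD DIFF and 85.3 ± 30.9 CPM in WT DIFF, a log2 fold change of 1.75 (SE 0.21). In PROL the means were 797 ± 46.1 CPM in DMD and 362 ± 44.4 CPM in WT, a log2 fold change of 1.13 (SE 0.10). By mean, DMD PROL was followed by WT PROL, DMD DIFF and WT DIFF, and WT PROL and DMD DIFF were the only neighbours that overlapped.

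**Figure D1:**
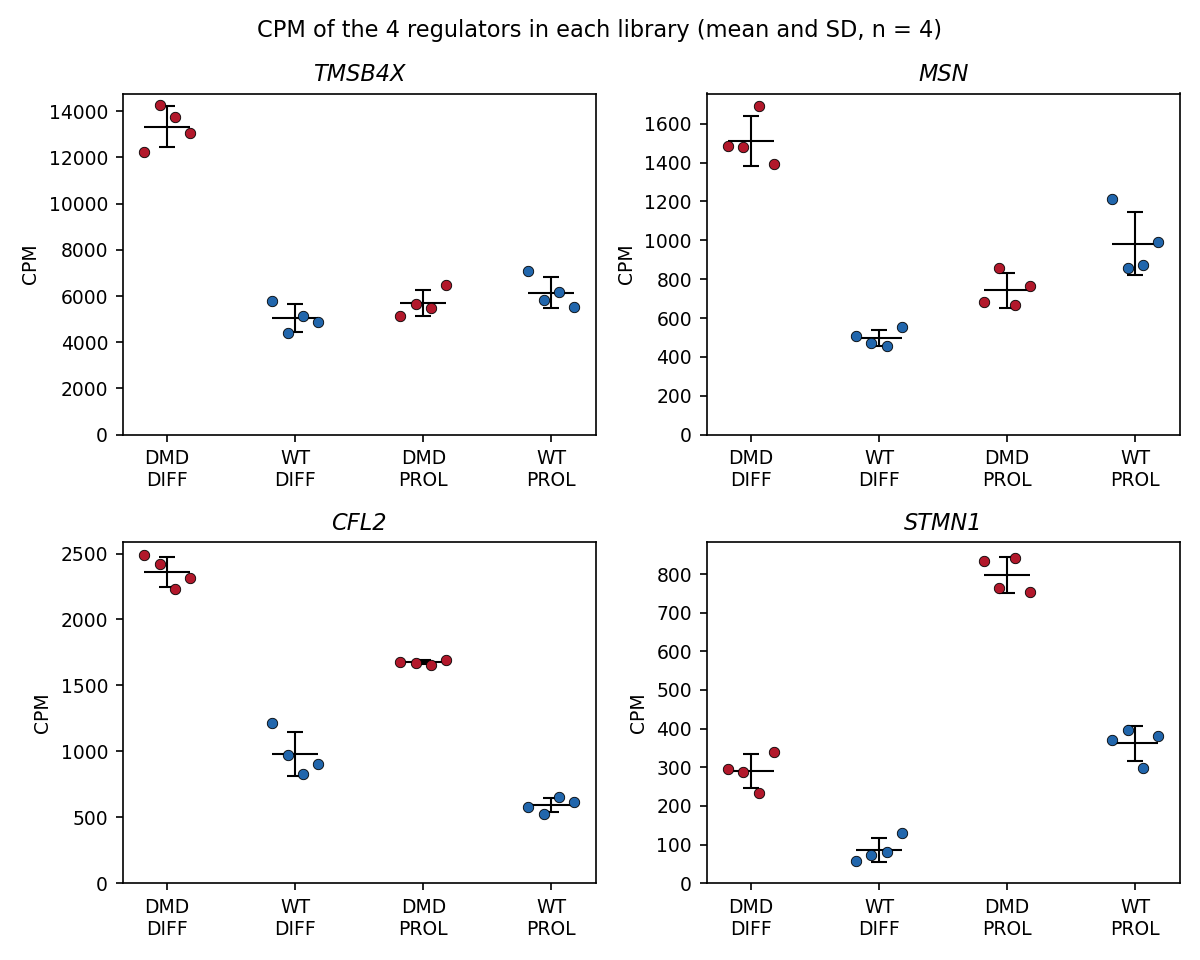
CPM (vertical axis, linear from 0) of *TMSB4X*, *MSN*, *CFL2* and *STMN1* in each of the 16 libraries, by genotype and state. Points are libraries and bars are the mean and SD of 4 animals. *TMSB4X* and *MSN* stand apart in DMD DIFF, *CFL2* is higher in DMD in both states, and *STMN1* is highest in DMD PROL.

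A gene was called where the edgeR quasi-likelihood test gave a Benjamini-Hochberg adjusted p under 0.05 over all genes tested and an absolute log2 fold change over 0.6. In DIFF, all 4 genes met this threshold between DMD and WT, against a background of 33.6% of 1916 genes (16.1% higher and 17.5% lower in DMD). In PROL, *CFL2* and *STMN1* met it, against 18.2% of 1914 genes (8.36% higher and 9.87% lower). The 4 genes had no overlap between genotypes in DIFF, where 45.3% of all genes had none, and *CFL2* and *STMN1* had none in PROL, where the share was 30%. Because the genes were selected on these values, nothing is read from these counts.

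Each animal gave both states, so the change with differentiation can be followed within an animal. *TMSB4X* was 2.02 to 2.53 times as high in DIFF as in PROL in the 4 DMD animals and 0.752 to 0.883 times as high in the 4 WT animals. *MSN* was 1.72 to 2.54 times as high in DMD animals and 0.421 to 0.559 times as high in WT animals. For both genes, every DMD animal went up and every WT animal went down.

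*CFL2* went up with differentiation in all 8 animals, 1.35 to 1.49 times in DMD and 1.27 to 2.12 times in WT. *STMN1* went down in all 8 animals, to 0.278 to 0.452 of the PROL level in DMD and to 0.156 to 0.340 in WT. The ranges of the genotypes overlapped for *CFL2* and *STMN1* and were apart for *TMSB4X* and *MSN*.

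**Figure D2:**
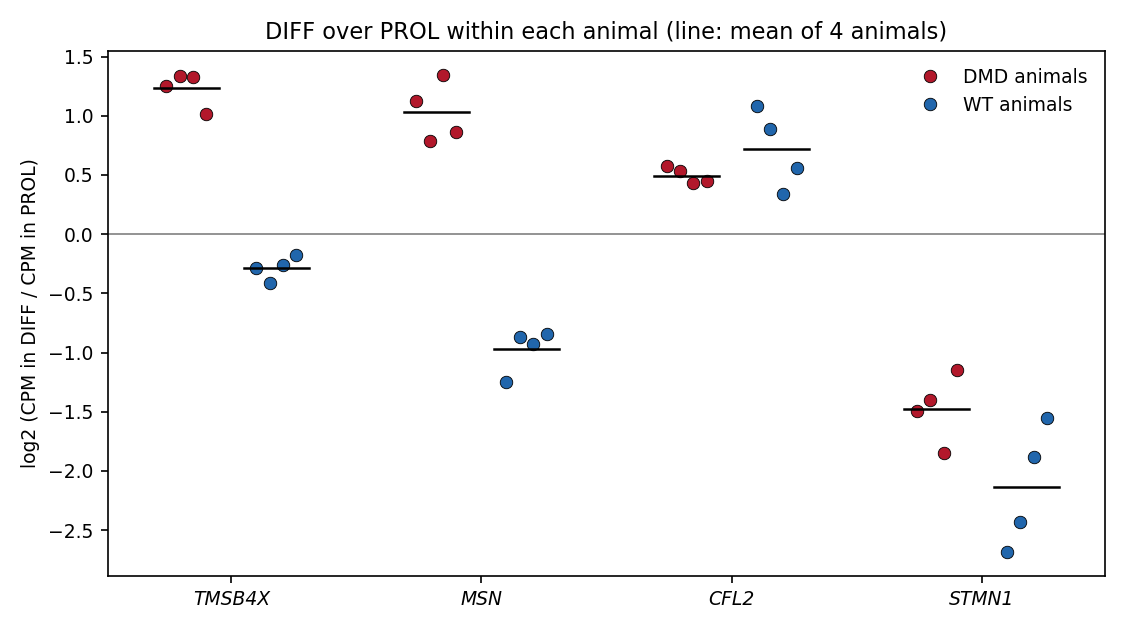
Log2 ratio of CPM in DIFF to CPM in PROL (vertical axis) within each animal, with DMD animals left of WT animals for each gene. Points are animals and black lines are means of 4. *TMSB4X* and *MSN* lie above 0 in DMD animals and below 0 in WT animals, while *CFL2* lies above 0 and *STMN1* below 0 in all 8.

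In the fit of DIFF over PROL in DMD cells, log2 fold changes were 1.22 (SE 0.08) for *TMSB4X*, 1.02 (SE 0.09) for *MSN*, 0.49 (SE 0.07) for *CFL2* and −1.47 (SE 0.10) for *STMN1*. In WT cells they were −0.30 (SE 0.11), −1.0 (SE 0.11), 0.71 (SE 0.11) and −2.10 (SE 0.21) in the same order of genes. *TMSB4X*, *MSN* and *STMN1* met the threshold in DMD, against 28.4% of all genes tested (16.0% higher and 12.4% lower in DIFF). *MSN*, *CFL2* and *STMN1* met it in WT, against 32.2% (17.9% higher and 14.3% lower). DIFF and PROL did not overlap for any of the 4 genes in DMD, as for 40.6% of all genes, and overlapped for *TMSB4X* alone in WT, where 43.2% of all genes had no overlap. *CFL2* in WT depends on 1 library and on the scaling: its log2 fold change was 0.58 without WT DIFF replicate 1 and 0.36 with library size alone, both under the threshold. With library size alone *TMSB4X* in WT met it, at −0.65. The genes were selected on these values here too, so nothing is read from which of them met the threshold.

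The difference of the genotype effect between DIFF and PROL was estimated over all 16 libraries. It was 1.51 (SE 0.14) on the log2 scale for *TMSB4X*, 2.01 (SE 0.15) for *MSN*, −0.23 (SE 0.14) for *CFL2* and 0.62 (SE 0.24) for *STMN1*. *TMSB4X* and *MSN* met the threshold, against 23.4% of 2030 genes (10.5% higher and 13.0% lower). *STMN1* did not meet it in this fit and met it in 6 of 26 alternatives. Those that left out a library were without WT DIFF replicate 4 (0.89), DMD DIFF replicate 3 (0.71) or WT PROL replicate 3 (0.70). Those with all libraries were the animal as a block (0.64), DESeq2 (0.63) and scaling by library size alone (0.89). Because the genes were selected on these values, meeting the threshold describes them and is not a test.

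For listed genes, rose and fell in a DMD group mean called higher or lower than in WT of the same state. Over all genes tested, 16.1% rose and 17.5% fell in DMD DIFF, and 8.36% rose and 9.87% fell in DMD PROL. Among other genes of actin monomer binding and filament turnover, 3 of 6 tested rose and 1 fell in DMD DIFF, and 2 rose and 1 fell in DMD PROL. The median log2 fold change of this list was 0.52 in DIFF, against −0.03 over all genes, and −0.04 in PROL, against −0.0021 over all genes. *TMSB10*, the close relative of *TMSB4X*, had 20829 to 28663 CPM in DMD DIFF and 13240 to 15521 CPM in WT DIFF, with a log2 fold change of 0.77 (adjusted p = 1.04e-05, edgeR). In PROL, *TMSB10* had 21915 to 23429 CPM in DMD and 13674 to 15394 CPM in WT, so that, unlike *TMSB4X*, its genotypes were apart in both states. The call of *TMSB10* in PROL is lost with library size alone.

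Profilin-1 (*PFN1*), which feeds actin monomers to growing filaments, was higher in DMD DIFF than in WT DIFF, with a log2 fold change of 1.42 (adjusted p = 7.98e-09, edgeR). In PROL it was higher in DMD by 0.62 (adjusted p = 2.27e-05, edgeR), a call that is lost without WT PROL replicate 3, with library size alone or with the first duplicate only. From PROL to DIFF, *PFN1* fell in all 4 DMD animals (0.629 to 0.790 times) and in all 4 WT animals (0.345 to 0.447 times). Destrin (*DSTN*), a depolymerising relative of *CFL2*, had 622.6 to 797.3 CPM in DMD PROL and 1297 to 1635 CPM in WT PROL, the opposite direction to *CFL2* (log2 fold change −1.07, adjusted p = 8.06e-07, edgeR). In DIFF, *DSTN* was higher in DMD by 0.63 (adjusted p = 0.000483, edgeR), and this call is lost without DMD DIFF replicate 3 or WT DIFF replicate 3, or with the second duplicate only. *TMOD3*, which caps the slow-growing filament end, fell by 1.78 on the log2 scale in DMD DIFF (adjusted p = 1.52e-06, edgeR).

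**Figure D3:**
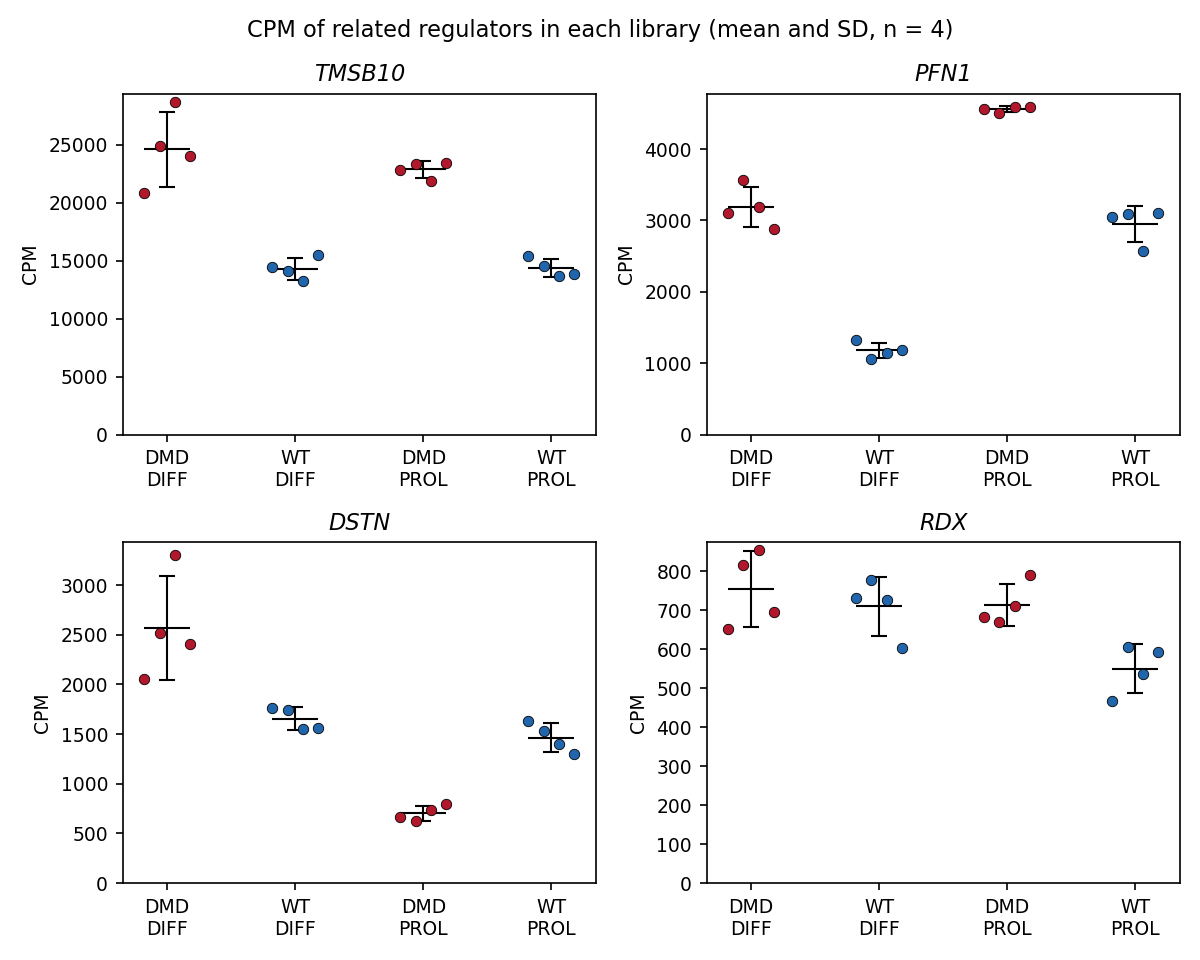
CPM (vertical axis, linear from 0) of *TMSB10*, *PFN1*, *DSTN* and *RDX* in each library, by genotype and state, with the mean and SD of 4 animals. *DSTN* is lowest in DMD PROL, where *CFL2* is above WT, and the genotypes of *RDX* overlap in DIFF and are apart in PROL.

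Of the membrane to actin linkers, 3 of 6 tested rose in DMD DIFF and none fell. Radixin (*RDX*), the relative of moesin, had 651.7 to 856.1 CPM in DMD DIFF and 602.3 to 778.4 CPM in WT DIFF and was not called. In PROL it had 670.7 to 790.7 CPM in DMD and 467.7 to 605.0 CPM in WT. The genotypes were apart there, as for 30% of all genes, but *RDX* was not called. Vinculin (*VCL*), which anchors filaments at adhesions, rose with a log2 fold change of 1.13 (adjusted p = 1.09e-06, edgeR), and α-actinin-1 (*ACTN1*), a filament crosslinker, with 1.87 (adjusted p = 0.000206, edgeR). The remaining listed linker that rose in DIFF was *DMD* itself (log2 fold change 1.16, SE 0.31), a call lost with the first duplicate only. In PROL neither *VCL* nor *ACTN1* was called, as with *MSN*, and *DMD* was the only listed linker that rose. By immunoblot, the paper found dystrophin absent from proliferating DMD cells. *VCL* is counted again among the SRF and MRTF targets below.

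Actin nucleation genes were called in both directions. In DMD DIFF, 2 of 11 rose and 2 fell, and in DMD PROL 1 rose and 2 fell. Beside the shares over all genes (16.1% and 17.5% in DIFF, 8.36% and 9.87% in PROL), nothing is read from these small counts. *ARPC1B*, a subunit of the Arp2/3 complex that starts branched filaments, fell by 1.2 in DIFF (adjusted p = 2.68e-05, edgeR) and by 1.36 in PROL (adjusted p = 0.000167, edgeR) on the log2 scale.

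Among tubulins and microtubule regulators, the group of *STMN1*, 3 of 12 rose and 1 fell in DMD DIFF, and 1 rose and 1 fell in DMD PROL. In PROL these counts were near the shares over all genes, 8.36% higher and 9.87% lower. *TUBB2B*, a β-tubulin, rose in DMD by 2.53 in DIFF (adjusted p = 1.16e-08, edgeR) and by 1.94 in PROL (adjusted p = 0.000407, edgeR). *TUBA1B*, an α-tubulin, was higher by 0.79 in DMD DIFF than in WT DIFF (adjusted p = 4.83e-06, edgeR), though it fell from PROL to DIFF in all 4 animals of each genotype. *TBCC*, a tubulin folding cofactor, was lower by 0.76 in DMD DIFF (adjusted p = 0.00033, edgeR). The call of *MAPRE1* (0.61 in DIFF, adjusted p = 0.000566, edgeR) is lost without DMD DIFF replicate 3 or 4, without WT DIFF replicate 2 or 3, or with the first duplicate only. Of 6 listed actins, 3 were counted, *ACTA1*, *ACTA2* and *ACTC1*, so these do not stand for actin as a whole. All 3 rose in DMD DIFF, and 2 of 3, *ACTA1* and *ACTC1*, rose in DMD PROL. *ACTA2* is counted again among the SRF and MRTF targets and the smooth muscle markers below, and *ACTA1* among the myogenic markers.

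The mitotic genes were set beside *STMN1*. In DIFF over PROL, 9 of 10 fell in DMD (median log2 −2.93) and 8 of 10 fell in WT (median −2.86), the direction that *STMN1* took in every animal. Between genotypes in PROL, where *STMN1* differed by 1.13, 1 of 11 mitotic genes rose and none fell, near the 8.36% of all genes that rose. The median was 0.22 against −0.0021 over all genes. The 1 that rose in PROL was *CCNA2*, a cyclin of DNA replication and mitotic entry (0.66, adjusted p = 0.000951, edgeR), a call that is lost without WT PROL replicate 3, with library size alone or with the second duplicate only. Between genotypes in DIFF, where *STMN1* differed by 1.75, 1 of 9 mitotic genes rose and 1 fell. Over all genes 16.1% rose and 17.5% fell, and the median of the mitotic genes was 0.06 against −0.03.

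Target genes of SRF and MRTF, a transcription factor and its coactivator that is held by actin monomers, were set beside *TMSB4X* and *MSN*. Of 23 listed targets, 10 were counted. All 10 tested rose in DMD DIFF relative to WT DIFF (median log2 2.21), and all 10 rose in DIFF over PROL in DMD (median 2.25). In WT, 1 of 10 rose with differentiation (median 0.20), and in PROL 2 rose and 2 fell in DMD (median −0.12). Of the PROL calls, that of *CNN1* is lost without DMD PROL replicate 1, 2 or 4, without WT PROL replicate 1 or 3, with either duplicate alone, or in the fit of all 16 libraries. *TAGLN* and *CNN1* of this list were named by the study from these samples, so the list is not independent evidence of a direction. *TAGLN*, an actin-binding protein of contractile cells, had 5232 to 7583 CPM in DMD DIFF and 804.9 to 1769 CPM in WT DIFF.

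**Figure D4:**
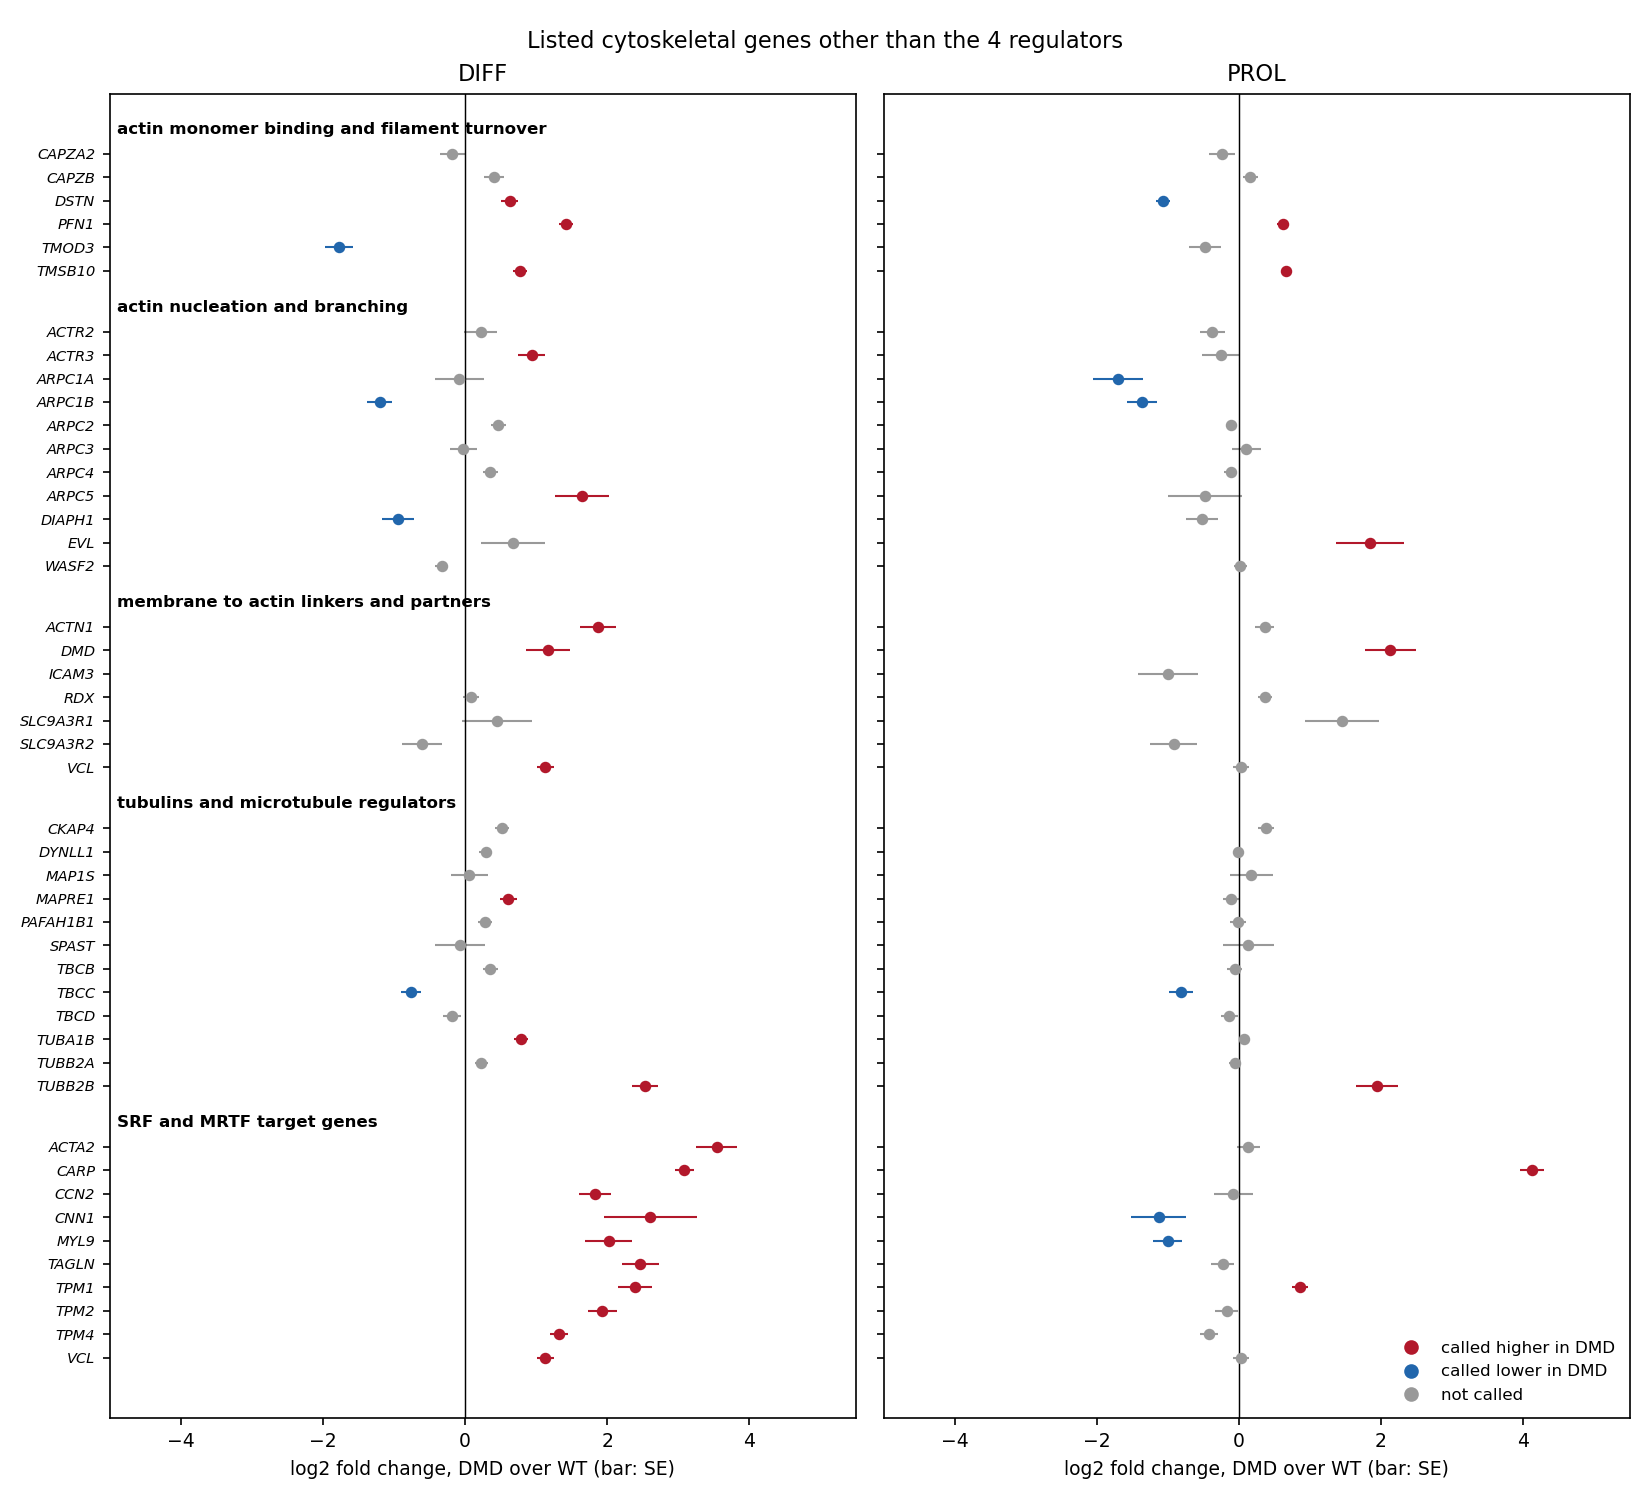
Log2 fold change of DMD over WT (horizontal axis, bar: SE) for listed cytoskeletal genes other than the 4 regulators, in DIFF (left) and PROL (right). Red genes were called higher in DMD, blue lower and grey were not called. The SRF and MRTF targets are all red in DIFF, while in PROL 2 are red, 2 are blue and 6 are grey.

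Markers of cell types moved with the same groups. Of 24 listed myogenic markers, 15 were counted, and 12 of 12 tested rose in DMD DIFF and 10 of 11 in DMD PROL. The summed level of the 15 in DIFF was 27387 to 30918 CPM in DMD and 6494 to 8538 CPM in WT. The same sum in PROL was 11116 to 15462 CPM in DMD and 3339 to 5313 CPM in WT. The integrin *ITGB1* was most of the WT PROL sum, with a mean of 4192 CPM there and 5126 CPM in DMD PROL. In DIFF it averaged 7761 CPM in DMD and 3444 CPM in WT. Ordered by the median of the myogenic sum, the groups stood as they did for *CFL2*. *MYF5*, a satellite cell factor, had no count in any WT library and few in DMD. It had 30 counts over all DMD PROL libraries (mean 4.71 CPM) and 40 over all DMD DIFF libraries (mean 6.82 CPM). Smooth muscle and pericyte markers summed in DIFF to 18974 to 24302 CPM in DMD and 1930 to 4255 CPM in WT. In PROL they summed to 3195 to 3829 CPM in DMD and 2361 to 3711 CPM in WT, and 4 of the 10 SRF and MRTF targets are among them. Of these markers, 6 of 6 tested rose in DMD DIFF, while 1 of 7 rose and 3 fell in DMD PROL. The 1 was *DES*, which is also a myogenic marker, with 1170.2 CPM in DMD PROL and 71.0 CPM in WT PROL. Without it the PROL sums averaged 2340.1 CPM in DMD and 2740.5 CPM in WT. *RGS5* of this list was not tested in DIFF, where it averaged 4.30 CPM in DMD and 5.82 CPM in WT. In PROL it averaged 4.91 ± 3.72 CPM in DMD and 104.9 ± 79.9 CPM in WT.

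Of 16 listed fibroblast markers, 6 were counted, and 5 of 6 tested were called lower in DMD DIFF and 4 of 5 in DMD PROL. The exception in DIFF was *COL1A2*, which averaged 9109 CPM in DMD and 7918 CPM in WT and was most of the DMD DIFF sum. The sum of the 6 genes in DIFF was 9488 to 12716 CPM in DMD and 21310 to 24402 CPM in WT. In PROL it was 4144 to 4581 CPM in DMD and 8249 to 10013 CPM in WT. Endothelial markers summed to 33.8 to 50.5 CPM in DMD DIFF and 79.9 to 125 in WT DIFF, and blood cell markers to 30.8 to 35.6 in DMD DIFF and 54.5 to 70.2 in WT DIFF. The endothelial sums were mostly *PECAM1* (means of 9.47 CPM in DMD and 38.2 in WT) and *ERG* (28.3 and 52.1). The blood cell sums were mostly *CD14* (20.0 CPM in DMD and 52.5 in WT), while *TYROBP* went the other way (12.4 and 6.62). The part of these cell types in the levels of the 4 genes was not tested.

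Genes whose log2 CPM ran most like each regulator over the 16 libraries were sought among 1540 genes. For *TMSB4X* they were *TAGLN* (Pearson r = 0.98), *LOC733637* (0.98) and *GHITM* (0.97). For *MSN*, *RARS* (0.92) and *AKAP2* (0.92) were among them. In DIFF, *AKAP2* averaged 516 ± 111 CPM in DMD and 254 ± 35.9 CPM in WT, and in PROL 294 ± 27.9 CPM in DMD and 362 ± 37.2 CPM in WT.

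For *CFL2* the nearest genes were *DES*, the muscle intermediate filament desmin (r = 0.98), *CIDEA* (0.98) and *PGAM2*, a muscle glycolytic enzyme (0.97). For *STMN1* they were *SNRPC* (0.96), *ENO3*, the muscle enolase (0.96), and *C7H6orf125* (0.96). The level of *ENO3* was 834 ± 202 CPM in DMD PROL, 194 ± 25.1 in WT PROL, 79.7 ± 23.9 in DMD DIFF and 21.0 ± 14.3 in WT DIFF. The 16 libraries share 8 animals and fall into 4 groups, so they are not independent points.

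Both technical duplicates of each library were counted. The gap between them, as a share of library total, holds both measuring error and differences in what else the library contains. As a share of library total, the median gap between duplicates was 4.27% for *TMSB4X*, 10.8% for *MSN*, 5.62% for *CFL2* and 7.56% for *STMN1*. The largest gaps were 42.0%, 47.2% and 48.2% for *TMSB4X*, *MSN* and *CFL2*, all in DMD PROL replicate 4, and 31.4% for *STMN1*, in WT DIFF replicate 1. In DMD PROL replicate 4, *RN18S* took 32% of the first duplicate and 7.14% of the second. The log2 ratio of the second duplicate over the first was there 0.57 for *TMSB10* and for *PFN1*, and 0.13 for *STMN1*. *TMSB4X* and *TMSB10*, and *CFL2* and *DSTN*, are related genes. How reads that fit both members of a pair entered the counts was not examined.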

How the data were processed

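Satellite cell RNA of 16 samples was measured by 3′ mRNA sequencing with unique molecular identifiers from 25 ng of total RNA. The authors deduplicated reads with UMI-tools, aligned them with STAR 2.7.10b to susScr3 and counted reads per gene with GeneCounts. The deposited values are raw counts in 32 columns, 2 technical duplicates per sample. The annotation and the strand setting are not given in the sources used here, so antisense partners cannot be told apart. All 124000 values are even, which is not explained. Sequences and coordinates of the genes were not used here.

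Duplicates were added. Genes were filtered with filterByExpr (minimum count 10, minimum total 15), scaled by TMM and fitted with edgeR 4.0.16 (R 4.3.3, limma 3.58.1) by robust quasi-likelihood within the 8 libraries of a comparison, and over 16 for the difference of effects. Calls required both a Benjamini-Hochberg adjusted p below 0.05 and a log2 fold change beyond 0.6 in either direction. The SE is the log2 fold change over the root of F. CPM used TMM over 16 libraries. DESeq2 1.42.0, other scalings and filters, single duplicates, a replicate block, leaving out each library and halved counts (chosen after seeing the data) were alternatives. The fits were tested on simulated data. The fit of the difference of effects was less sensitive there than the others, and the bound it had to pass was changed after this was seen.

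The 4 genes and all lists were chosen with earlier results of these data known. From each list, up to 3 called genes per direction with the largest change and at least 20 CPM in 1 group could be named, with the 3 genes most like each regulator, except for genes that are not reported here. *TMSB10*, *DSTN*, *PFN1*, *RDX*, *VCL*, *TUBA1B* and *TAGLN* were shown by library as relatives or examples. Libraries of the 2 states of a genotype come from the same animals, and the correlation of their deviations from the group means was 0.0998 to 0.172. Library totals were 1110050 to 1781174, and the spread between animals sets the precision.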

Additional observations from a re-analysis of the deposited data

Results flagged for a closer look

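The change from PROL to DIFF differed between genotypes for *TMSB4X* by 1.51 and for *MSN* by 2.01 on the log2 scale, with every DMD animal higher and every WT animal lower in DIFF. Both genes were selected with their values known, so no test is given.

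Among listed genes, the signed log2 fold change of DMD over WT was more positive in DIFF than in PROL, by the interaction test of edgeR, for *DSTN* (1.69), *PFN1* (0.80), *ACTR3* (1.18), *ARPC1A* (1.62), *VCL* (1.10), *ACTN1* (1.5), *TUBA1B* (0.71) and *MAPRE1* (0.72). The same held for *ACTA2* (3.40), *CNN1* (3.74), *TPM1* (1.53) and *MYL9* (3.02). Of these, *ARPC1A* was called lower in DMD PROL and not called in DIFF, and *DSTN*, *CNN1* and *MYL9* were called lower in DMD PROL and higher in DMD DIFF. The difference was negative for *TMOD3* (−1.30), *ACTA1* (−2.08), *ACTC1* (−1.44), *CDK1* (−0.92), *CKS1B* (−1.18) and *CARP* (−1.04). No sample of the 4 regulators stood apart from its group by Dixon's ratio.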

How the results depend on the processing

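Of 408 alternative values of the 4 regulators' fold changes, 407 kept their sign and 398 moved by less than the replicate spread. The other 10 all came from library size alone in place of TMM: in PROL, −0.27 for *TMSB4X* and 1.35 for *CFL2*; in DIFF, 1.73 for *MSN*; for states in DMD, 0.41 for *CFL2*; for states in WT, −0.65 for *TMSB4X*, −1.35 for *MSN* and 0.36 for *CFL2*; and for the difference of effects, 1.80 for *TMSB4X*, 2.29 for *MSN* and 0.052 for *CFL2*, which changed sign. That scaling shifted the median of all genes by −0.14 in PROL, 0.14 in DIFF, −0.35 for states in WT and 0.28 for the difference. It turned higher and lower calls into 122 and 264 in PROL, 387 and 267 in DIFF, 194 and 564 for states in WT, and 387 and 134 for the difference, against 160 and 189, 308 and 335, 343 and 275, and 213 and 263. Summed over both directions, no count of called genes moved past 1.5 times. Of 5696 alternatives for listed genes, 99 lost a call, 67 gained one and 0 changed direction. With the replicate block, 326 genes were called in PROL, 629 in DIFF, 545 for states in DMD, 640 for states in WT and 492 for the difference, and among named genes the calls of *ARPC1A* (states in WT), *CNN1* (PROL), and *CCNA2* and *CNN1* (DIFF) were lost. Between genotypes the shared numbers belong to different animals, with correlations of −0.0274 to 0.0993. *STMN1* in WT DIFF rests on as few as 84 counts.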
